A study of Mus musculus with 6 samples.

Results

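The 10 genes described here encode the lysosomal cathepsins Ctsa, Ctsb, Ctsc, Ctsd, Ctsf, Ctsh, Ctsk, Ctsl, Ctss and Ctsz. They were taken by symbol from the 37411 gene rows of the deposited count table, and all 10 were present and passed the filter on low counts. RNA had been sequenced from primary hippocampal neurons of newborn (P0) CD-1 IGS mice, an outbred strain, after 16 days in vitro. There were 3 libraries from neurons given DMSO, the solvent (libraries 1, 2 and 3), and 3 from neurons given 50 µM forskolin (libraries 4, 5 and 6), each for 30 min. Forskolin activates adenylyl cyclase and so raises cyclic AMP. The labels name no batch, pool or sex, and do not say whether the libraries came from separate cultures, so the p-values measure the spread between these libraries, which may be technical.

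Cathepsins are proteases of the lysosome, the acidic compartment where cells break down proteins. They are made as inactive precursors, carried to the lysosome largely by mannose 6-phosphate receptors, and activated there by cleavage. Most are cysteine proteases, Ctsd is an aspartic protease and Ctsa a serine carboxypeptidase. In brain some are made by all cell types, whereas others are known chiefly from microglia and other myeloid cells. On that background the genes were divided into 5 broadly expressed members (Ctsa, Ctsb, Ctsd, Ctsf and Ctsl), 4 myeloid members (Ctsc, Ctsh, Ctss and Ctsz), and Ctsk, the collagen-degrading cathepsin of osteoclasts, which was kept apart.

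The cathepsin promoters are shown because the members of these classes differed in their letters as well as in their levels. RefSeq (GRCm38.p6) gave a start site for 8 of the 10 genes, in 9 entries, and Ctsb and Ctsh had none in the table used. A window of 250 bases before to 30 bases after each start was searched on both strands for motifs that were chosen after the sequences had been seen. CACGTG, the E-box core bound by the lysosomal regulators TFEB and TFE3, was in 4 of the 4 broadly expressed members with an entry, in 0 of the 3 myeloid members and not in Ctsk. For Ctsa it was in the second of its 2 entries only. It was in 6.79% of all 32851 promoter windows. Its longer form TCACGTGA, which holds the core and is the centre of the motif known as CLEAR, was in Ctsa and Ctsd (0.931% of all windows). GAGGAAGT, a site of the myeloid factor PU.1, was in Ctsc and Ctss and in none of the broadly expressed members (2.82% of all windows). The interferon element, a pair of GAAA repeats parted by any 2 letters, was in Ctss alone among the cathepsins, as GAAACCGAAA (3.28% of all windows). The cyclic AMP response element TGACGTCA was in none of the 9 windows (1.74% of all windows), and its shorter form TGACG was in Ctsd alone (19.9% of all windows). These matches are a description of letters and not evidence of binding. The 2 broadly expressed promoters with TCACGTGA and the 2 myeloid promoters with GAGGAAGT follow, read in the direction of the gene, with every motif match in capitals.
Ctsd, chr7:142387798-142388077, minus strand: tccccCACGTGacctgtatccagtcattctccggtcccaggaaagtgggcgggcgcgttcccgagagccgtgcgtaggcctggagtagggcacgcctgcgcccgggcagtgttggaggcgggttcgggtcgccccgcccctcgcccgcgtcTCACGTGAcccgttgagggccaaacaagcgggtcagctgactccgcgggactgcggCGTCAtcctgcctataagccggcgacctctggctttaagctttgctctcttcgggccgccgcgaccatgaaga
Ctsa, chr2:164833523-164833802, plus strand: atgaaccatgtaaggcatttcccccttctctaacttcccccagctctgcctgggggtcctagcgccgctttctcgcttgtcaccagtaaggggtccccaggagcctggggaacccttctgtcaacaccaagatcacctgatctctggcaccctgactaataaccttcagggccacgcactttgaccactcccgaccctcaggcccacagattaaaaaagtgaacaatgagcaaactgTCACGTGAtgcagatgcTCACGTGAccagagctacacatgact
Ctss, chr3:95526536-95526815, plus strand: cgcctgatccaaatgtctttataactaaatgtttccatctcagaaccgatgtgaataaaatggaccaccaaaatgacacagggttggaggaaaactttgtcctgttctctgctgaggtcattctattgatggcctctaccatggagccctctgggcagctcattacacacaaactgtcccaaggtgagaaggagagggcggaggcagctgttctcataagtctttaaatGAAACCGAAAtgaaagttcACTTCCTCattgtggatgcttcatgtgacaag
Ctsc, chr7:88277835-88278114, plus strand: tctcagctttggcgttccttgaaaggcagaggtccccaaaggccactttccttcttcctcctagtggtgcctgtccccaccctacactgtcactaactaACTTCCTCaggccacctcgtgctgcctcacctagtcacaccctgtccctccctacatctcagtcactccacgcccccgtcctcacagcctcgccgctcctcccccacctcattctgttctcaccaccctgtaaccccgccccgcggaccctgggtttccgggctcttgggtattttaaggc
In Ctsd the capitals are the matches starting at positions -245 and -98 (CACGTG), the latter within TCACGTGA, and at -43 (TGACG, on the other strand). In Ctsa, whose second annotated start is shown, TCACGTGA starts at positions -13 and 5 counted from the start site. In Ctss the capitals are GAAACCGAAA, starting at -21, and the reverse complement of GAGGAAGT, starting at -2 and so spanning the start site. In Ctsc that reverse complement starts at -151.

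Total counts ran from 28342764 to 47548379 per library, and levels are given as CPM, that is, counts divided by each library's TMM-scaled depth. Forskolin libraries 4 and 5 stood apart from library 6, which lay near the DMSO libraries in most cathepsins. Mitochondrially encoded genes took 14.7, 24.6 and 20.9% of counts with DMSO and 30.5, 34.6 and 27.8% in libraries 4, 5 and 6, and the part of this share in the cathepsin values was not tested. Markers of microglia and border macrophages were also high in libraries 4 and 5. The summed level of 12 microglia markers was 5.97 to 11.5 CPM with DMSO, whereas libraries 4, 5 and 6 gave 152, 285 and 8.54 CPM, and none of the 12 was at 0 in any library. Of these 12 markers, 12 lay above every DMSO library in library 4, 11 in library 5 and 3 in library 6. Markers of border macrophages (7 genes) summed to 2.56 to 3.12 CPM with DMSO and to 32.9, 65.0 and 4.66 CPM in libraries 4, 5 and 6. Neutrophil and monocyte markers (8 genes) did not exceed 0.529 CPM in sum in any library, with S100a9 and Ly6c2 at 0 counts throughout. All 12 neuron markers were detected in every library and summed to 4392 to 5640 CPM with DMSO and 3356 to 5328 CPM with forskolin. Of these, Rbfox3 passed the edgeR test as lower (log2 fold change -0.87 ± 0.13 (SE), adjusted p = 0.0392). That call was lost with the GC trend removed (-0.45, edgeR adjusted p = 0.409) and when any library but forskolin library 6 was left out. Astrocyte markers (10 genes) summed to 7040 to 8613 CPM over the 6 libraries, with members that differed in direction. Aqp4 measured 212 to 313 CPM with DMSO and 675, 862 and 243 CPM in libraries 4, 5 and 6, whereas Aldoc measured 1677 to 1856 CPM and 957, 944 and 1659 CPM. Oligodendrocyte lineage markers (10 genes) summed to 822 to 913 CPM with DMSO and 647 to 1560.4 CPM with forskolin. In bulk RNA, more cells of a type and more RNA per cell cannot be told apart.

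In the DMSO libraries the cathepsins covered a wide range of levels. Per kilobase of the longest annotated transcript (GENCODE M21), Ctsd was highest at 285 ± 38.2 CPM per kb (SD, n = 3), followed by Ctsb at 110.5 ± 8.23 CPM per kb. Ctsf (31.4 ± 2.88), Ctsa (23.0 ± 1.56), Ctsl (19.1 ± 1.39) and Ctsz (12.6 ± 1.49 CPM per kb) came next. Ctsh (3.45 ± 1.09), Ctsc (1.63 ± 0.0917) and Ctsk (0.971 ± 0.663 CPM per kb) were lower, and Ctss was the lowest at 0.359 ± 0.112 CPM per kb. Of the neighbours in this order only Ctsc and Ctsk overlapped between libraries, since Ctsk reached 1.74 CPM per kb in library 1. With the median transcript length in place of the longest the order among the broadly expressed members changed, with Ctsb at 413 and Ctsd at 315 CPM per kb, while Ctsz, Ctsh, Ctsc, Ctsk and Ctss kept ranks 6 to 10 by their means. All 5 broadly expressed members were thus above all 4 myeloid members in solvent-treated cultures under both lengths.

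Per kb of the longest transcript, library 5 had another order. Ctss, at rank 10 of 10 in each DMSO library and in library 6, was at rank 7 in library 4 and rank 4 in library 5, where it measured 36.0 CPM per kb. Ctsz went from rank 6 to rank 3 in libraries 4 and 5 and back to 6 in library 6. Ctsd and Ctsb held ranks 1 and 2 in all 6 libraries by that length. These ranks depended on the length used. With the median transcript length Ctss was at rank 9 in library 4 and rank 8 in library 5, below all 5 broadly expressed members, Ctsz was at rank 6 in both, and Ctsb was above Ctsd in each library but library 4.

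**Figure D1:**
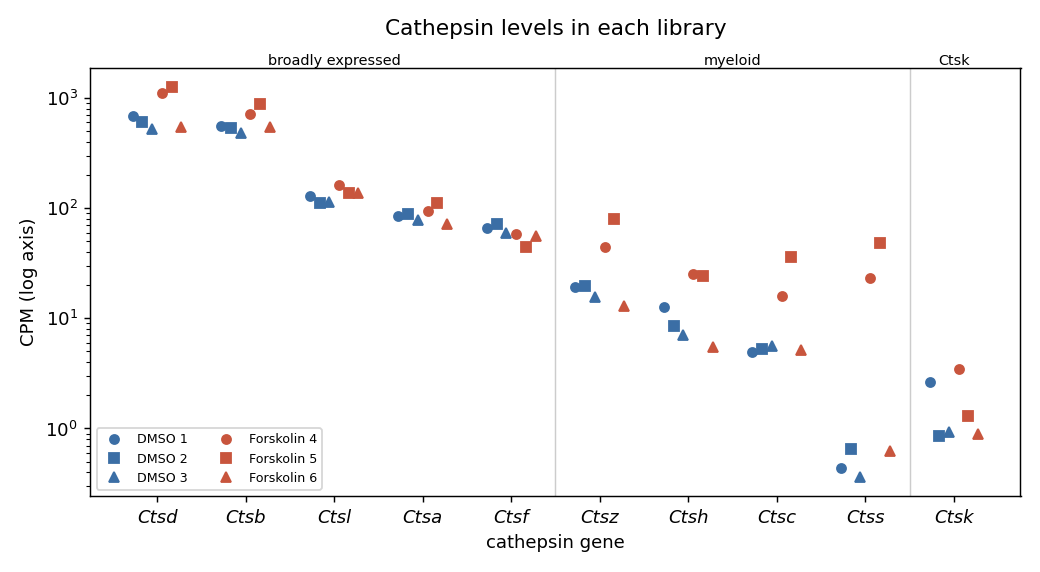
CPM on a log axis of each cathepsin (x axis) in each library (1 point a library, DMSO blue, forskolin red). Ctss sits between 0.365 and 0.656 CPM in the DMSO libraries and library 6, and at 23.2 and 48.7 CPM in libraries 4 and 5.

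Ctss showed the widest range of the family. It encodes cathepsin S, a cysteine protease that trims the invariant chain of MHC class II in antigen-presenting cells and keeps activity at neutral pH. As raw counts, the solvent libraries held 14, 20 and 13, whereas libraries 4, 5 and 6 held 1091, 1658 and 21. Libraries 4 and 5 were 47.7 and 100 times the DMSO mean in CPM, whereas library 6 was 1.29 times it and lay within the DMSO range. With all 6 libraries the edgeR log2 fold change was 5.63 ± 1.39 (SE), with an adjusted p of 0.105. The groups overlapped, and the exact two-sided permutation test over the 6 libraries gave p = 0.2, where 0.1 is the smallest it allows. Without library 6 the value was 6.19 ± 0.41 (edgeR adjusted p = 0.00176), and with libraries 4 and 5 left out it was 0.41 (adjusted p = 0.720).

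The other myeloid members were higher in the same 2 libraries by smaller factors and did not start from so low a level. Ctsc encodes the dipeptidyl peptidase that activates granule serine proteases of immune cells. It measured 4.97, 5.22 and 5.55 CPM with DMSO and 15.8, 36.3 and 5.17 CPM in libraries 4, 5 and 6. Library 6 fell inside the narrow DMSO range. Ctsz, a carboxypeptidase, measured 19.2, 19.5 and 15.7 CPM with DMSO and 44.3, 80.4 and 12.8 CPM with forskolin. For this gene library 6 was the lowest of all 6 libraries. Ctsh, an aminopeptidase, measured 12.8, 8.60 and 7.01 CPM with DMSO and 25.1, 24.2 and 5.49 CPM with forskolin, again with library 6 the lowest. The edgeR log2 fold changes over 6 libraries were 1.86 ± 0.62 (SE) for Ctsc (adjusted p = 0.167), 1.34 ± 0.57 for Ctsz (adjusted p = 0.229) and 0.95 ± 0.55 for Ctsh (adjusted p = 0.340). Their exact permutation p-values were 0.3, 0.4 and 0.4. Without library 6 they were 2.29 (adjusted p = 0.00550), 1.77 (0.00527) and 1.37 (0.00989) by edgeR. All 4 myeloid members then passed, where 33.6% of 16941 tested genes did (16.5% as higher). Without library 5 the values of Ctsc, Ctsz and Ctsh were 1.04, 0.69 and 0.73. Leaving out library 4 gave 1.98, 1.36 and 0.65. None of them passed in either fit (edgeR). The part of the microglia and border macrophage markers in these values was not tested.

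The myeloid members differed in their level with DMSO. Where the 12 microglia markers together gave 5.97 to 11.5 CPM, Ctsz alone gave 15.7 to 19.5 CPM and Ctsh 7.01 to 12.8 CPM in the same 3 DMSO libraries, whereas Ctss gave at most 0.656 CPM. Relative to the DMSO mean, library 5 was 100 times higher for Ctss, 6.91 times for Ctsc, 4.44 times for Ctsz and 2.56 times for Ctsh. The members also differed in how libraries 4 and 5 compared. Library 5 exceeded library 4 by 2.29 times for Ctsc, 2.10 times for Ctss and 1.81 times for Ctsz, and the same ratio had a median of 1.85 over the 12 microglia markers (range 0.329 to 4.05). For Ctsh it was 0.966, and for the 5 broadly expressed members it ran from 0.760 (Ctsf) to 1.23 (Ctsb).

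**Figure D2:**
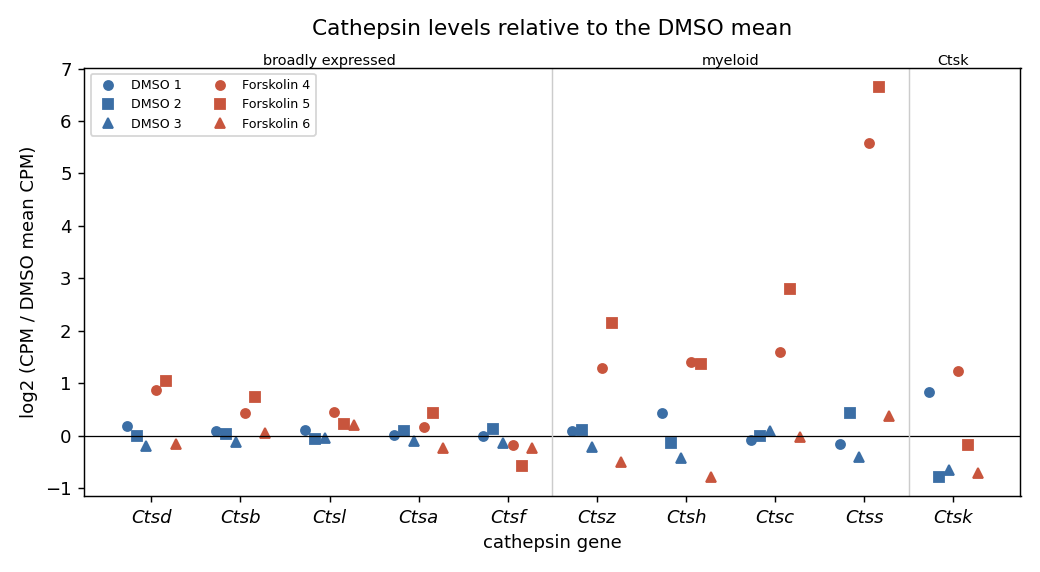
Log2 of each library's CPM over the DMSO mean, for each cathepsin (1 point a library, DMSO blue, forskolin red). All 4 myeloid members lie above every DMSO library in libraries 4 and 5 and none of them does in library 6.

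Of the broadly expressed members, Ctsd and Ctsb were higher in libraries 4 and 5. Ctsd is the main aspartic protease of the lysosome. It measured 688, 604 and 525 CPM with DMSO, whereas libraries 4, 5 and 6 gave 1109.6, 1254 and 542 CPM. Library 6 lay inside the DMSO range. Ctsb, an abundant cysteine protease that also trims carboxy-terminal dipeptides, measured 554, 537 and 479.9 CPM with DMSO and 711, 877 and 541 CPM with forskolin, with library 6 inside the DMSO range. Over 6 libraries the edgeR log2 fold change was 0.68 ± 0.31 (SE) for Ctsd (adjusted p = 0.257) and 0.44 ± 0.20 for Ctsb (adjusted p = 0.251), with exact permutation p-values of 0.3 and 0.2. Without library 6 the values were 0.95 (adjusted p = 0.00561) and 0.58 (adjusted p = 0.0168). Without library 5 they were 0.48 and 0.29, and leaving out library 4 gave 0.57 and 0.43. Neither gene passed in those fits (edgeR). Ctsa, the carboxypeptidase that protects the lysosomal enzymes Neu1 and Glb1, measured 84.5, 88.9 and 77.6 CPM with DMSO and 94.2, 112 and 71.2 CPM with forskolin. Library 6 was below and libraries 4 and 5 above every DMSO library, and the log2 fold change of 0.15 ± 0.18 did not pass (edgeR adjusted p = 0.644).

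Ctsl and Ctsf were the 2 cathepsins whose groups did not overlap, and they lay in opposite directions. Ctsl, an endopeptidase, measured 128, 112 and 114 CPM with DMSO and 162, 138 and 136 CPM with forskolin, so that all 3 forskolin libraries were higher. Ctsf, a less studied cysteine protease, measured 65.4, 72.0 and 60.0 CPM with DMSO and 58.2, 44.2 and 55.9 CPM with forskolin, so that all 3 were lower. Each gave the smallest exact permutation p-value the design allows, 0.1. Neither passed over all genes, with edgeR log2 fold changes of 0.30 ± 0.12 (SE; adjusted p = 0.212) for Ctsl and -0.32 ± 0.14 (adjusted p = 0.240) for Ctsf. Among all tested genes 26.5% had groups that did not overlap (10.3% higher and 16.2% lower), against 2 of the 10 cathepsins. The GC content of the longest transcript was 44.3% for Ctsl, the lowest but 1 of the 10, and 56.6% for Ctsf, the highest but 1. With each library's trend on GC content removed, the log2 fold changes were 0.12 for Ctsl (edgeR adjusted p = 0.675) and -0.03 for Ctsf (adjusted p = 0.917).

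Ctsk did not share the pattern of the myeloid members. It measured 2.62, 0.853 and 0.926 CPM with DMSO and 3.46, 1.29 and 0.896 CPM with forskolin, with libraries 1 and 4 the highest (edgeR log2 fold change 0.37 ± 0.65, adjusted p = 0.758). Its direction turned without library 4, to -0.42. Ctsk (chr3:95499256-95509362) ends 17423 bases before Ctss (chr3:95526786-95556403) on the same strand in GRCm38, and in library 5 Ctsk was 0.881 times its DMSO mean while Ctss was 100 times its own. The sum of the 5 fibroblast markers Col1a1, Col1a2, Col3a1, Dcn and Lum was also highest in libraries 1 and 4, at 319, 167 and 126 CPM with DMSO and 394, 142 and 109 CPM with forskolin. Library 5 over library 4 was 0.373 for Ctsk and had a median of 0.375 over these 5 markers (range 0.278 to 0.634). The 5 osteoclast markers summed to 0.449 to 0.874 CPM with DMSO and to 3.55, 9.64 and 0.418 CPM in libraries 4, 5 and 6, where Acp5, which macrophages also express, gave 3.23 and 9.20 CPM of the sums in libraries 4 and 5. The part of fibroblast RNA in the Ctsk values was not tested.

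**Figure D3:**
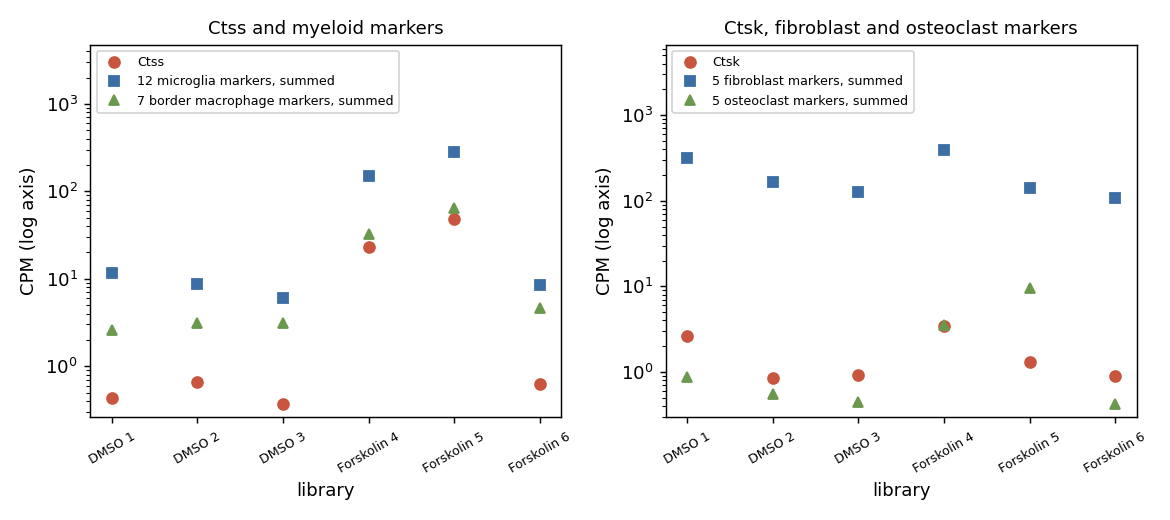
CPM on a log axis in each of the 6 libraries (x axis) for Ctss with summed microglia and border macrophage markers (left) and for Ctsk with summed fibroblast and osteoclast markers (right). Ctss and the myeloid markers are high in libraries 4 and 5, whereas Ctsk and the fibroblast markers are highest in libraries 1 and 4.

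Counted over the family, 0 of the 10 cathepsins passed edgeR's quasi-likelihood test with all 6 libraries, where 1.51% of 16233 tested genes did. Ctsc, Ctsl and Ctss, 3 of the 10, had an unadjusted p-value under 0.05, as had 22.3% of all genes. DESeq2 called 2, Ctsc (adjusted p = 0.0159) and Ctss (7.14e-04), against 10.9% of all genes. Limma with library quality weights called 8, with Ctsa and Ctsk left out and Ctsf the only lower one, against 41.9% of all genes. With the GC trend removed 0 were called, and 0% of all genes, and with that trend removed and library 6 left out 7 were called (Ctsa beside the 6 named next), against 32% of all genes. Without library 6 alone edgeR called 6 higher and 0 lower (Ctsb, Ctsc, Ctsd, Ctsh, Ctss and Ctsz), where 33.6% of 16941 tested genes were called, 16.5% as higher. The median log2 fold change over the 6 libraries was 1.60 for the 4 myeloid members and 0.30 for the 5 broadly expressed members, against 0.02 for all tested genes. Without library 6 these medians were 2.03, 0.33 and 0.01.

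**Figure D4:**
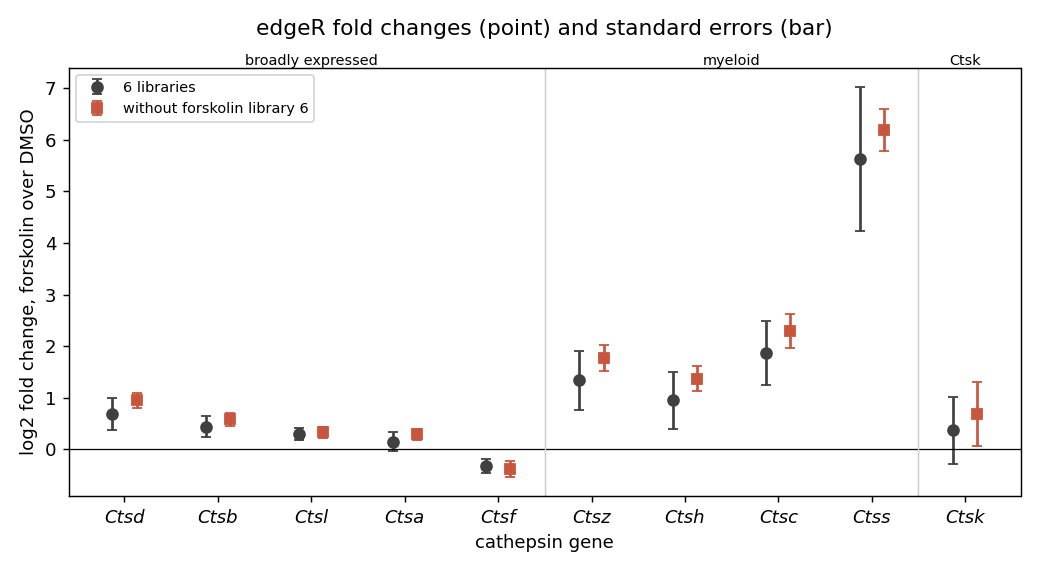
edgeR log2 fold change of forskolin over DMSO for each cathepsin, as point and standard error, with all 6 libraries (circles) and without forskolin library 6 (squares). The standard error of Ctss falls from 1.39 to 0.41 and that of Ctsd from 0.31 to 0.14 when library 6 is left out.

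Most of the additional cathepsin reads came from broadly expressed members despite their smaller fold changes. The 10 genes together measured 1559.7, 1449 and 1286 CPM with DMSO and 2247, 2616 and 1371 CPM in libraries 4, 5 and 6. The excess over the DMSO mean was 815 CPM in library 4 and 1185 CPM in library 5. Ctsd supplied 61.8 and 54.7% of it and Ctsb 23.0 and 29.8%. The 4 myeloid members together supplied 9.22 and 13.2%, of which Ctss gave 2.78 and 4.07%. Their share of all cathepsin reads was 2.22 to 2.40% in the DMSO libraries and 4.83, 7.25 and 1.76% in libraries 4, 5 and 6. These sums are per read and not per length, so they follow transcript length as well as abundance.

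**Figure D5:**
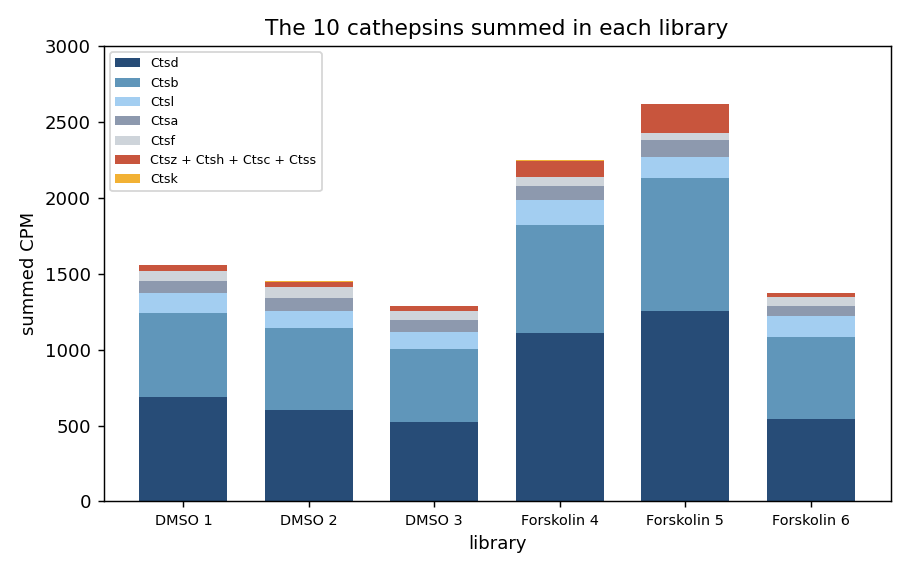
Stacked bars of summed CPM of the 10 cathepsins in each library, from 0. Libraries 4 and 5 reach 2247 and 2616 CPM, the other 4 between 1286 and 1559.7 CPM, and Ctsd makes up the largest part of each bar.

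The authors' deposited table, which compares the treatments, held 132 genes as used here. Ctsc, Ctss and Ctsz were the only cathepsins of this family among them. Ctss is numbered 451 there, so the 132 genes appear to be part of a longer list. How they were picked is not given. In the authors' deposited table the log2 fold change is 1.88 for Ctsc (SE 0.284), 1.76 for Ctss (SE 0.344) and 1.65 for Ctsz (SE 0.227). The adjusted p-values in the authors' deposited table are 5.71e-09, 1.23e-05 and 9e-11, so that all 3 pass there. The share of all genes that passed in that comparison is not known, so these calls give no separate support. DESeq2 run here on the deposited counts gave 1.87 for Ctsc, 5.64 for Ctss and 1.35 for Ctsz. The values differed most for Ctss, the member with the fewest counts in the DMSO libraries. Whether the deposited fold changes were shrunken towards 0 is not given in the sources used here, so their scale may differ from that of the values computed from counts, and the cause was not tested.

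The other 13 cathepsin genes of the count table added little. Of these, 8 had 0 counts in every library, all of them placental-type cathepsins. Ctso, a broadly expressed cysteine cathepsin, measured 28.6, 28.3 and 31.4 CPM with DMSO and 51.8, 44.8 and 35.7 CPM with forskolin. All 3 forskolin libraries were above all 3 DMSO libraries, but the log2 fold change of 0.58 ± 0.15 (SE) did not pass (edgeR adjusted p = 0.120). It passed with DESeq2 (0.60, adjusted p = 0.0123) and with edgeR without library 6 (0.70, adjusted p = 0.00652), and was 0.26 with the GC trend removed. Ctse, an aspartic cathepsin of immune cells, had 1, 0 and 0 counts with DMSO and 49, 42 and 1 counts in libraries 4, 5 and 6.

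The list of protease inhibitors held 8 cystatins and stefins, which inhibit cysteine cathepsins, and the serpins Serpina3n and Serpinb6a, which inhibit serine proteases. Of 5 tested genes 0 passed the edgeR threshold, 2 had an unadjusted p-value under 0.05 (22.3% of all genes) and DESeq2 called 1 (10.9% of all genes). Without library 6 edgeR called 3 of 6 tested genes higher (Cstb, Cst7 and Serpinb6a) and 1 lower (Cst3), against 16.5 and 17.1% of all genes. Cst7 passed the low-count filter only in that fit, through its counts in libraries 4 and 5. Its call as higher was thus largely set by the filter and gives no support. Cst3, the secreted inhibitor cystatin C, was lower in all 3 forskolin libraries, at 2462, 2097 and 1820.1 CPM with DMSO and 1204, 1008 and 1199 CPM in libraries 4, 5 and 6. Its log2 fold change by edgeR was -0.90 ± 0.18 (SE) with an adjusted p of 0.0711, and it passed with DESeq2 (adjusted p = 3.2e-05) and with edgeR without library 6 (-0.96, adjusted p = 0.00887). Library 6 was here with libraries 4 and 5, unlike in the cathepsins of the myeloid class. With the GC trend removed the value was -0.58 (adjusted p = 0.351). Cstb, the intracellular cystatin B, measured 15.6, 16.4 and 10.6 CPM with DMSO and 23.0, 26.4 and 13.7 CPM with forskolin. Cst7, an inhibitor known from microglia, had 1, 0 and 6 counts with DMSO and 18, 28 and 1 counts in libraries 4, 5 and 6.

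The other lysosomal lists were read in the same way. Of 32 further lysosomal hydrolases, 13 membrane proteins and 8 genes of enzyme sorting, 0 passed the edgeR test over 6 libraries, with median log2 fold changes of 0.15, 0.09 and -0.11. At an unadjusted p-value under 0.05 these lists held 6, 2 and 1 genes, against 22.3% of all genes, and DESeq2 called 4, 1 and 0, against 10.9%. Without library 6, 7 hydrolases were called higher and 3 lower, 3 membrane proteins higher and 1 lower, and 1 sorting gene (Grn) higher, against 16.5% higher and 17.1% lower of all tested genes. Lgmn, the asparaginyl endopeptidase that processes several cathepsins, measured 88.8 ± 7.09 CPM with DMSO and 99.4 ± 15.8 CPM with forskolin (SD, n = 3). The membrane protein Lamp2 measured 116, 102 and 122 CPM with DMSO and 216, 207 and 123 CPM with forskolin. M6pr, a mannose 6-phosphate receptor, measured 97.6 ± 5.83 CPM with DMSO and 116 ± 4.18 CPM with forskolin (SD, n = 3).

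Subunits and accessory proteins of the proton pump that acidifies the lysosome had a median log2 fold change of -0.25. With 6 libraries 0 of 13 passed the edgeR test, where 1.34% of all genes were called lower. DESeq2 called 1 (10.9% of all genes), and 2 had an unadjusted edgeR p-value under 0.05 (22.3% of all genes). Without library 6, 9 were called lower and 0 higher, against 17.1 and 16.5% of all genes. Atp6v0c, the subunit that forms the proton-carrying ring, was the DESeq2 call and measured 13.1, 15.9 and 12.7 CPM with DMSO and 4.38, 3.03 and 0.209 CPM in libraries 4, 5 and 6 (edgeR log2 fold change -2.44, adjusted p = 0.169). Atp6v0a1, a membrane subunit abundant in neurons, measured 462, 577 and 526 CPM with DMSO and 314, 319.8 and 515 CPM with forskolin. The summed neuron markers were lower in the same 2 libraries, at 3356 and 3654 CPM against 5328 CPM in library 6, and their part in these values was not tested.

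Regulators were read from short lists. Tfeb, Tfe3 and Mitf, which drive lysosomal genes through the E-box, had edgeR log2 fold changes of -0.17, -0.07 and 0.53 and did not pass (adjusted p = 0.871, 0.754 and 0.357; 0 at an unadjusted p-value under 0.05 and 0 called by DESeq2). Mitf measured 3.06, 3.31 and 2.86 CPM with DMSO and 4.65, 5.96 and 2.69 CPM in libraries 4, 5 and 6, and passed without library 6 (edgeR log2 fold change 0.77, adjusted p = 0.0300). Spi1, which encodes PU.1, measured 0.375, 0.230 and 0.168 CPM with DMSO and 3.08, 5.85 and 0.119 CPM in libraries 4, 5 and 6 (edgeR adjusted p = 0.161, and 0.00328 without library 6). Irf8 and Runx1, also myeloid factors, were likewise above every DMSO library in libraries 4 and 5 and below or within the DMSO range in library 6. Cebpa, a factor of myeloid and other cells, measured 7.06 ± 1.49 CPM with DMSO and 6.30 ± 1.49 CPM with forskolin (SD, n = 3).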

How the data were processed

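The authors deposited whole-number counts per gene symbol, 1 column per library. The submitters' processing notes name Salmon, DESeq and GRCm38 without a role or version. Salmon estimates counts, so these values may be rounded estimates and not tallies of reads. Annotation and strand setting are not given in the sources used here, so how reads shared by related genes were divided is unknown. Per the file headers, the authors' own comparison holds for each gene the normalised count averaged over libraries (a signal), the log2 fold change with its standard error, the test statistic (a score) and a raw and adjusted p-value.

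Counts were tested with edgeR 4.0.16 (limma 3.58.1, DESeq2 1.42.0, R 4.3.3): filterByExpr (minimum count 10, minimum total count 15), TMM, glmQLFit and glmQLFTest on the 2 groups, Benjamini-Hochberg adjustment over all 16233 tested genes, threshold 0.05. Standard errors are the absolute log2 fold change over the square root of F. Single genes were also tested by an exact two-sided permutation test over the 20 regroupings. The test script was checked on simulated data. Transcript length and GC content came from GENCODE M21, matched by symbol for 96.7% of rows. Log2 CPM used a prior count of 2. The labels give the groups no shared replicate numbers.

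The cathepsins, the gene and marker lists and the alternatives were chosen with earlier results of these data known. The genes named are the 10 cathepsins, list members past the threshold or among the first 4 of their list, and the 3 genes most alike in pattern to Ctss and to Ctsd among those with a mean count of at least 50. Grn, Aqp4, Aldoc, Irf8 and Runx1 and single markers outside that rule were named after their values were seen.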

Additional observations from a re-analysis of the deposited data

How the results depend on the processing

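The number of genes called over the whole table was 245 and that of cathepsins 0 with edgeR. Over all genes it was 1775 with DESeq2, 6795 with library quality weights, 137 with RLE factors, 102 with upper-quartile factors, 0 with the GC trend removed (1948 genes at an unadjusted p-value under 0.05), 5417 with that trend removed and library 6 left out, and 94 with libraries 4 and 5 left out, an alternative chosen after seeing the data in which forskolin is 1 library assumed to vary like the DMSO libraries. Leaving out each library in turn gave 0 to 5698 genes and 0 to 6 cathepsins, with 0 genes and 0 cathepsins when any library but forskolin library 6 was left out. Cathepsin calls were 2 with DESeq2, 8 with quality weights and 7 with the GC trend removed and library 6 left out. The cause of these shifts was not tested. Of 190 values of single cathepsins under alternatives, 161 kept their direction and side of the threshold, 23 newly passed it and 6 turned direction. With libraries 4 and 5 left out the log2 fold change was -0.20 for Ctsa, -0.12 for Ctsd, -0.75 for Ctsh, -0.67 for Ctsk and -0.46 for Ctsz, and leaving out 1 library gave -0.42 (library 4) to 1.10 (DMSO library 1) for Ctsk. Ctss stayed positive, from 0.41 to 6.19, as did Ctsb (0.08 to 0.60), Ctsc (0.02 to 2.29) and Ctsl (0.12 to 0.38), and Ctsf stayed negative (-0.43 to -0.03). No paired analysis was possible because the labels give the groups no shared replicate numbers. Depth limits Ctss and Ctsk most, with 13 to 84 counts in each DMSO library.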

Other observations

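The genes most alike in pattern were sought by Pearson's r of log2 CPM over the 6 libraries, among 13435 genes outside the family whose counts averaged 50 or more. The likeness is given as a description with no p-value, since libraries 4 and 5 stand apart and the points share their libraries. Closely similar r values were found for 34 genes with Ctss and 50 with Ctsd, so the genes named are not particular partners. For Ctss the genes most alike were Rps27l (r = 0.999), Rab27a (r = 0.998) and Pvalb (r = 0.998). Their own range was much smaller than that of Ctss: Rps27l measured 20.9, 22.0 and 19.97 CPM with DMSO and 34.3, 36.8 and 21.5 CPM in libraries 4, 5 and 6. Pvalb, the calcium-binding protein parvalbumin, measured 4.93, 5.05 and 4.74 CPM with DMSO and 11.8, 14.9 and 5.05 CPM in the forskolin libraries. For Ctsd they were Fas (r = 0.998), Rab32 (r = 0.997) and Cyth4 (r = 0.997). Fas, a death receptor, measured 5.47, 4.43 and 3.82 CPM with DMSO and 11.3, 12.3 and 3.91 CPM in libraries 4, 5 and 6. Cyth4, which blood cells express, measured 1.62, 1.08 and 0.645 CPM with DMSO and 9.83, 20.7 and 0.597 CPM in the forskolin libraries, a wider range than that of Ctsd. In library 6 Rps27l, Pvalb, Fas and Rab32 lay within the DMSO range, Rab27a just above it and Cyth4 just below it, and for Ctsd and its 3 neighbours DMSO library 1 was the highest of the solvent libraries.

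Tfec, a relative of Tfeb found in macrophages, had 0 counts in each DMSO library and in library 6, and 13 and 25 counts in libraries 4 and 5.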
